A study of Mus musculus with 31 samples.

Results

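The UDP-glucuronosyltransferases (UGT), glutathione S-transferases (GST) and sulfotransferases (SULT) are the main conjugating enzymes of the liver. They were followed in mouse liver lacking XBP1 or IRE1α, proteins of the unfolded protein response. The genes were those of the array annotation whose symbols name the UGT1 and UGT2 families, the soluble GST classes and the SULT families. This gave 38 of the 17097 genes measured, of which 9 were UGT, 16 were GST and 13 were SULT genes. Each gene was represented by the probe set with its highest mean over all arrays, so no measured change entered the choice of probe set. The enzymes themselves were chosen with earlier results of these data known. Liver RNA was hybridised to an Affymetrix perfect-match array, and the values are intensities, the brightness of a probe set on a linear scale.

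Conjugation attaches a sugar acid, glutathione or a sulfate group to a lipophilic compound, which makes the product soluble and ready for export in bile or urine. UGTs sit in the membrane of the endoplasmic reticulum (ER) and take glucuronic acid from UDP-glucuronate. GSTs are mostly cytosolic and use glutathione, and SULTs are cytosolic and use the sulfate donor PAPS. Their substrates in liver include bilirubin, steroid and thyroid hormones, bile acids, products of lipid peroxidation and many drugs. The unfolded protein response is set off when misfolded proteins gather in the ER. IRE1α, encoded by Ern1, then splices the Xbp1 mRNA, whose product is a transcription factor.

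The 31 arrays fell into 8 groups of male mice, each of 4 arrays except untreated Ire1 ko with 3. In the first experiment, livers of Xbp1 ko mice and of WT littermates, all 14 weeks old and labelled as fed, were compared. For the second, mice with Xbp1 ko, 9 weeks of age, were injected either with siRNA to luciferase (the control) or with siRNA to IRE1 and sampled 8 days later. All mice of that experiment lacked Xbp1. In the third, Ire1 ko and WT mice aged 14 weeks were untreated or had been given tunicamycin (2 mg/kg, 6 h), an inhibitor of N-glycosylation that brings on ER stress. The untreated WT mice were labelled as littermates of the Ire1 ko mice. The strain was given as c57BL/6 for all groups except Ire1 ko, where it was given as mixed, so in these labels the Ire1 genotype and the strain cannot be told apart. The labels name neither a Cre driver nor the deleted part of either gene. Arrays of a group are called biological replicates, and nothing further is said of their source.

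The targeted genes were read first. Xbp1 intensity was 944 in WT and 470 in Xbp1 ko (log2 difference -1.01, limma adjusted p 0.00872). Ern1 was 149 in untreated WT and 150.3 in untreated Ire1 ko, which checks nothing where the deleted part is not given. After tunicamycin, Xbp1 was 930 in WT and 1640 in Ire1 ko. In the siRNA experiment the Ern1 probe set went against the labels: its mean was 24.2 in the arrays labelled luciferase siRNA and 205 in those labelled IRE1 siRNA. Directions in that experiment are therefore given as labelled, and they turn round if the labels were exchanged. All 8 hepatocyte markers were bright, and 4 cholangiocyte markers had summed intensities of only 18 to 23 in every array. In whole liver, fewer cells of a type and less RNA per cell cannot be told apart.

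Of the 38 genes, 28 had a mean intensity of 16 or more over all arrays: 7 UGT, 16 GST and 5 SULT genes. Ugt2a1 and 7 SULT genes (Sult1c1, Sult1e1, Sult2a2, Sult2b1, Sult3a1, Sult4a1 and Sult6b1) never rose above 8 in any array, near the lowest value of the table, which was 3. Fold changes are compressed there. After a filter on low values, 34 of the genes were tested in the Xbp1 experiment, 33 in the siRNA experiment and 35 in the Ire1 experiment. Probe sets of 10 genes, including Ugt1a6a, Ugt1a9, Gstm1, Gstm3, Gstp1 and Sult1a1, carry a suffix for probes that can read several transcripts or related genes. The UGT1A mRNAs share their 3′ exons and the Gstm and Ugt2b genes are close paralogs, so single members of these groups are less certain than the others.

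The genes lie in clusters: in the RefSeq gene table of GRCm38.p6, Ugt2b34, Ugt2b1, Ugt2b35, Ugt2b5, Ugt2b37, Ugt2a3, Ugt2a1, Sult1b1, Sult1d1 and Sult1e1 stand in that order among the members on chromosome 5. The 7 Gstm genes lie on chromosome 3. Promoter windows of 300 bases, 250 before and 50 after the start, were found for 34 of the 38 genes in the RefSeq table of that build. The core of the XBP1-type element, ACGTGG on either strand, was present in 3 of the 43 windows of these genes (Gstm1, Gstp3 and Sult2b1). It was present in 8.31% of all promoters. The core of the antioxidant response element, TGACNNNGC on either strand, was present in 2 of the 43 windows (Gstm5 and Gstm7) and in 12.4% of all promoters. The full ER stress response element, on either strand, was present in 0 of the 43 windows and in 0.119% of all promoters. A match in a window is a description and not a site of binding. The 250 bases before the start are shown for 3 genes whose values stand out below: Gstp3, which rose after tunicamycin in both genotypes and holds a match in capitals (CCACGT, the reverse complement of ACGTGG); Ugt2b35, with the largest fall; and Sult1a1, which rose in Ire1 ko. Neither of the last 2 windows holds any of the 3 motifs.
Gstp3, chr19:4059448-4059697, minus strand: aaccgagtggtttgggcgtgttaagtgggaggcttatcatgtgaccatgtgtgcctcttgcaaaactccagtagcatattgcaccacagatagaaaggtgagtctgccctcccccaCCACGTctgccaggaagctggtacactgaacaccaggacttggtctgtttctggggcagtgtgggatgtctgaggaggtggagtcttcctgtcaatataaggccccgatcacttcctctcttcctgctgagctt
Ugt2b35, chr5:87000610-87000859, plus strand: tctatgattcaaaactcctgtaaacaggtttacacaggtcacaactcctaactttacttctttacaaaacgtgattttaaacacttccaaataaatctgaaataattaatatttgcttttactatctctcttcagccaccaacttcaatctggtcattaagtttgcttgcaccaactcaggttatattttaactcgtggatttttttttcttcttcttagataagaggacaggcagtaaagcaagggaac
Sult1a1, chr7:126676419-126676668, minus strand: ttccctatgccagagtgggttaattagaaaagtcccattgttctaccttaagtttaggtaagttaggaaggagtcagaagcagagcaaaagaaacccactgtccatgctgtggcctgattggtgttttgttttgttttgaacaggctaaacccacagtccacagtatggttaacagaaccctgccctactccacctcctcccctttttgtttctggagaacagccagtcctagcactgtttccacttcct

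Across the 8 groups, the members differed widely in how far their group means spread. The enzymes with the steadiest levels among bright members were Gstm1, the abundant mu-class transferase, with group means from 2314 to 2688, and Ugt1a9, with group means from 2061 to 2453. The means of Gstp1, the pi-class enzyme, ran from 4032 to 5371. At the other end, Ugt2b35 ran from 159 in WT after tunicamycin to 954 in untreated Ire1 ko, a ratio of 5.99. The ratio of highest to lowest group mean was 4.75 for Gsta2, 4.68 for Gsta4, 4.54 for Sult5a1 and 3.98 for Gstm3. These ranges cross experiments with different ages and controls and are given as description.

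**Figure D1:**
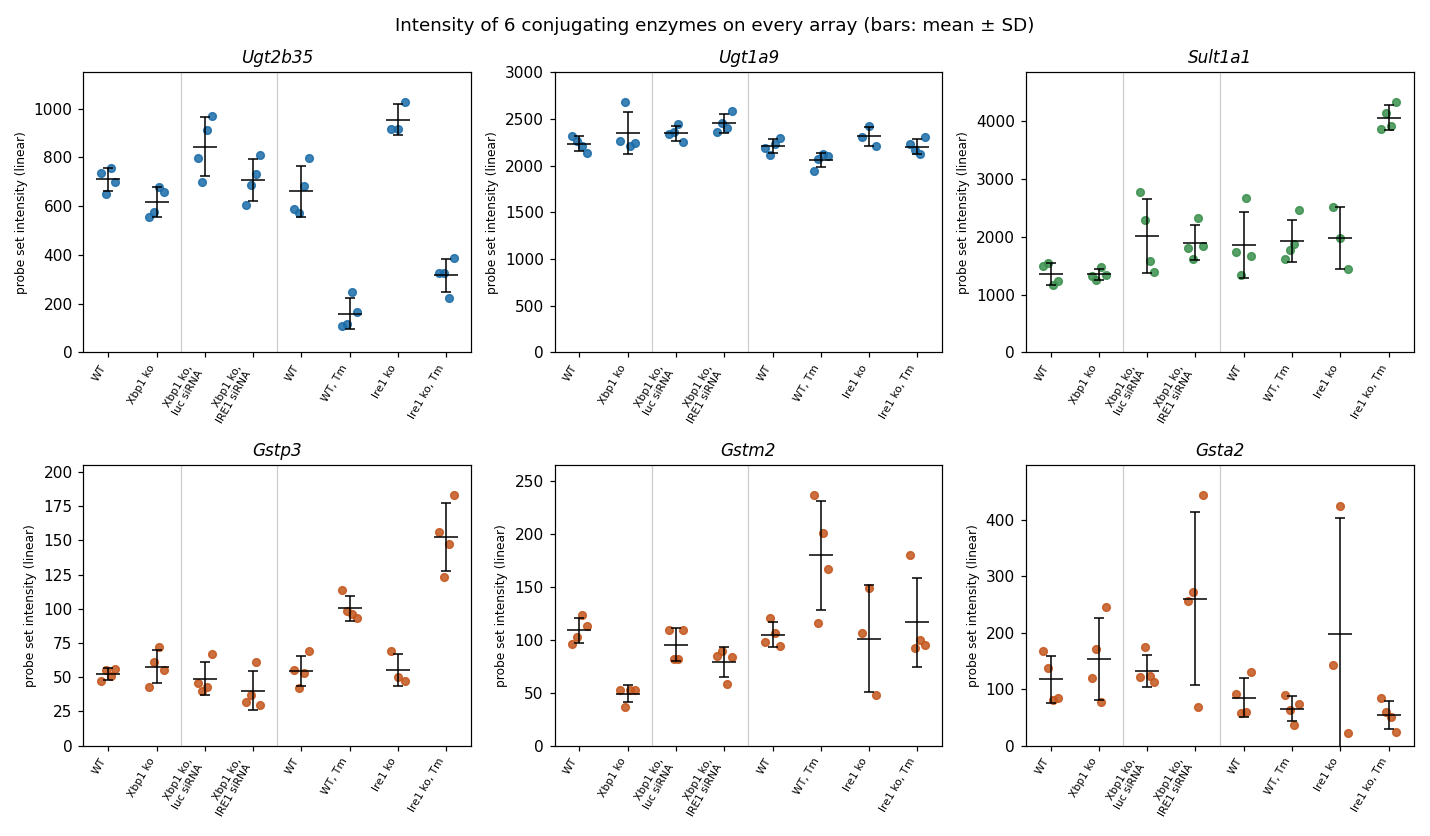
Intensity of 6 conjugating enzymes (linear scale, each panel with its own axis from 0) in the 8 groups; Tm is tunicamycin, points are arrays and bars are the group mean with its standard deviation, cut at 0 where it reaches below. Ugt1a9 stays between 1946 and 2684 in all arrays, Ugt2b35 falls to between 109 and 388 in the 8 tunicamycin arrays, and Sult1a1 is highest in Ire1 ko after tunicamycin, at 3866 to 4339.

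Tunicamycin gave the largest changes of these enzymes. The comparison asks how acute ER stress alters liver expression. In WT liver, 17 of the 35 enzymes tested fell and 2 rose. Of all genes tested, 36.1% were called in this comparison, 17.6% lower and 18.5% higher. Among enzymes with a group mean of 16 or more, 15 of 28 fell and 2 rose, beside 32.3% lower and 35.6% higher of all such genes. The median log2 change was -0.42 over these 28 enzymes and 0.03 over all such genes. The arrays of the tunicamycin and untreated groups did not overlap for 18 of the 35 enzymes, beside 30.9% of all genes. All 18 had a group mean of 16 or more, where 64.1% of all genes did not overlap. By family, 6 of 9 UGT, 7 of 16 GST and 4 of 10 SULT genes fell, and both that rose were GST genes. In Ire1 ko liver 14 of 35 fell and 3 rose, beside 10.3% lower and 17.4% higher of all genes (27.7% called). Among those with a group mean of 16 or more, 12 of 28 fell and 3 rose, beside 21.2% and 34.6% of all such genes. Here and below, a gene rose or fell where limma's Benjamini-Hochberg adjusted p over all genes tested was under 0.05.

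Of the UGT genes, Ugt2b35, Ugt2a3, Ugt2b1 and Ugt2b5 fell in both genotypes, with log2 changes from -2.12 to -0.85. A difference between the UGT1 and UGT2 subfamilies was not tested. Ugt2b35, a UGT2B enzyme, had intensities of 589, 572, 682 and 799 in untreated WT and 109, 116, 247 and 165 after tunicamycin. Every treated array lay below every untreated one. The fall was 4.34-fold, -2.12 on the log2 scale (standard error, SE, 0.22, limma adjusted p 7.44e-07). In Ire1 ko the values were 917, 918 and 1028 untreated and 324, 327, 224 and 388 treated, a change of -1.62 (SE 0.24, limma adjusted p 6.38e-05). The groups again did not overlap.

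Ugt2a3 fell from 696 ± 75.8 to 276 ± 36.9 in WT (SD, n = 4) and from 578 ± 120.0 (n = 3) to 208 ± 63.1 (n = 4) in Ire1 ko. Its log2 changes were -1.34 and -1.50. Ugt2b1, a further member of the UGT2B subfamily, fell from 2051 to 1006 in WT and from 1716 to 744 in Ire1 ko. Ugt2b5 fell from 2123 to 1102 and from 2198 to 1216. In both genotypes the treated arrays of these 3 enzymes all lay below the untreated ones. Ugt2b34 moved little, from 1284 to 1108 in WT (-0.21, limma adjusted p 0.0467) and from 1429 to 1443 in Ire1 ko. Its call in WT was lost in 11 of 15 fits that each left out 1 array, and with quantile normalization, no filter or probe sets averaged, with an adjusted p of up to 0.159. Ugt2b37 was also called lower in both genotypes, and Ugt2a1 in Ire1 ko, but their group means were only 4 to 6.25.

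The UGT1A probe sets were not called in these fits. With arrays set to a common median, both Ugt1a9 and Ugt1a6a were called lower in both genotypes, and with all probe sets of a gene averaged Ugt1a6a was called lower in WT. Ugt1a9 had intensities of 2192, 2116, 2237 and 2302 in untreated WT and 1946, 2071, 2122 and 2104 after tunicamycin. The log2 change was -0.10 (95% interval -0.21 to 0.01). Ugt1a6a, from the cluster whose first-exon variants conjugate planar phenols, changed by -0.10 in WT (95% interval -0.22 to 0.03) and by -0.02 in Ire1 ko (-0.16 to 0.11). A further probe set of Ugt1a6a gave differences of -0.32 and -0.14.

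**Figure D2:**
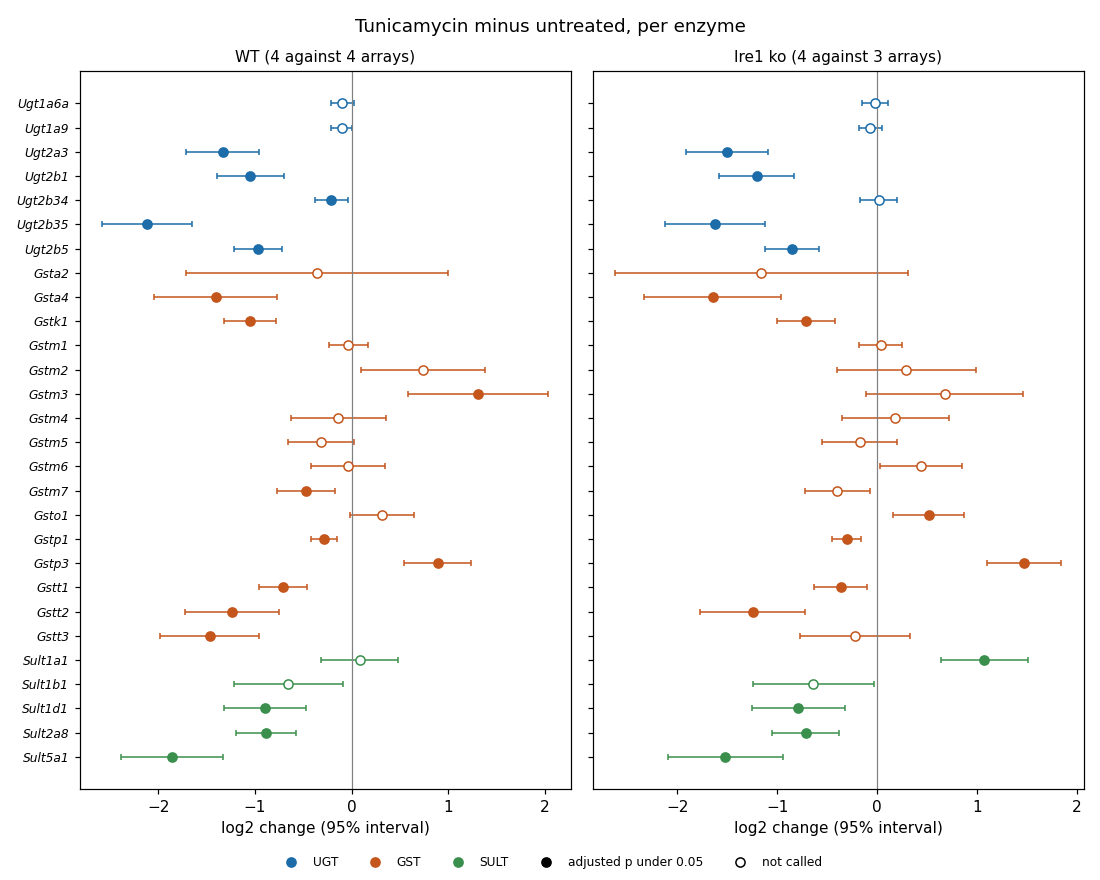
Log2 change after tunicamycin for the enzymes with a group mean intensity of 16 or more, in WT and in Ire1 ko, each with its 95% interval; filled points have an adjusted p under 0.05. In both genotypes Ugt2b35, Ugt2a3, Ugt2b1, Gsta4, Gstt2 and Sult5a1 lie below -1, Gstp3 lies above 0, and Sult1a1 lies near 0 in WT and at 1.07 in Ire1 ko.

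Among the GSTs, 1 alpha, 1 kappa, 3 theta, 1 mu and 1 pi gene fell in WT. A different mu gene and a different pi gene rose. Gsta4, which conjugates the lipid peroxidation product 4-hydroxynonenal, had intensities of 313, 250, 244 and 423 in untreated WT and 134, 94, 89 and 145 after tunicamycin. The change was -1.41 (SE 0.30, limma adjusted p 0.0012). In Ire1 ko it fell by 1.65 on the log2 scale. The other alpha member, Gsta2, was not called in either genotype (-0.36 and -1.16), and its untreated Ire1 ko arrays stood at 143, 425 and 23. Of the theta class, Gstt1 fell from 1206 to 738 in WT and from 1066 to 820 in Ire1 ko. Its arrays in Ire1 ko overlapped (-0.36, limma adjusted p 0.0398). That call was lost in 6 of 15 fits that left out 1 array (WT tunicamycin replicates 1 and 3, Ire1 ko replicates 1 and 2, Ire1 ko tunicamycin replicates 1 and 4), with quantile normalization, with no filter and with the replicate block. The change ran from -0.54 to -0.21 over the alternatives run. Gstt2 fell by 1.24 and by 1.25 on the log2 scale. Gstk1, the mitochondrial and peroxisomal kappa-class enzyme, fell from 602 to 291 in WT and from 590 to 356 in Ire1 ko.

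Gstt3 was called lower in WT and not in Ire1 ko. Its WT values were 55, 50, 70 and 61 untreated and 19, 19, 23 and 24 after tunicamycin, a change of -1.47 (SE 0.24, limma adjusted p 0.000111). In Ire1 ko they were 47, 71 and 26 untreated and 33, 33, 53 and 36 treated, a change of -0.22 that was not called (limma adjusted p 0.609). The treated and untreated arrays overlapped in Ire1 ko and not in WT.

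The rises were in Gstm3 and Gstp3. Gstm3, a mu-class enzyme, went from 409, 606, 695 and 441 to 1600, 927, 1506 and 1276 in WT, a change of 1.31 (SE 0.34, limma adjusted p 0.00593). A further Gstm3 probe set, which was not tested, differed by 1.80. In Ire1 ko the untreated Gstm3 arrays were spread over 374 to 1591 and the change of 0.68 was not called. Gstp3, a pi-class gene, went from 55, 42, 53 and 69 to 114, 98, 96 and 93 in WT (0.89, SE 0.16, limma adjusted p 0.000315). In Ire1 ko it went from 69, 50 and 47 to 156, 123, 147 and 183 (1.47, SE 0.18, limma adjusted p 9.14e-06), and the groups did not overlap in either genotype.

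Its abundant relative Gstp1 moved the other way and by less, from 5165 to 4243 in WT (-0.28) and from 4984 to 4032 in Ire1 ko (-0.30). Gstm7 fell in WT (-0.47, limma adjusted p 0.0134) and had a like value in Ire1 ko that was not called (-0.40, limma adjusted p 0.0638). Gsto1, an omega-class enzyme with reductase activity, had a change of 0.31 in WT that was not called, and it rose by 0.52 in Ire1 ko (limma adjusted p 0.0304). That rise came with 498 and 478 in a pair of treated arrays and 857 and 798 in the others. The call was lost without Ire1 ko replicate 1 or 2 or without Ire1 ko tunicamycin replicate 3 or 4, and also with the common median, with no filter and with probe sets averaged, with an adjusted p of up to 0.127. Gstm1 changed by -0.03 (95% interval -0.24 to 0.17) in WT and 0.03 (-0.19 to 0.25) in Ire1 ko.

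Of the SULT genes above the floor, Sult5a1 changed most. Its intensities were 128, 130, 72 and 129 in untreated WT and 43, 20, 28 and 37 after tunicamycin, a fall of 3.63-fold (-1.86, SE 0.25, limma adjusted p 1.49e-05). In Ire1 ko, 61, 96 and 62 became 28, 24, 19 and 30 (-1.52, SE 0.27). Sult2a8, a bile acid sulfotransferase of mouse liver, fell from 1313 to 711 in WT and from 1215 to 718 in Ire1 ko. Sult1d1 fell by 0.90 and by 0.79 on the log2 scale, and its further probe set gave -1.03 and -0.83. The call in Ire1 ko was lost without Ire1 ko replicate 2. Sult1b1, a thyroid hormone sulfotransferase, had changes of -0.65 and -0.64, neither of them called. Sult1c2 fell in WT from only 10.5 to 6 and was 10.3 and 9.75 in Ire1 ko.

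Sult1a1, the main phenol sulfotransferase of liver, was the enzyme for which the genotypes parted most clearly. WT arrays stood at 1746, 1342, 2682 and 1669 untreated and at 1614, 1769, 1871 and 2460 after tunicamycin, which overlap fully (0.08, 95% interval -0.32 to 0.48). Ire1 ko arrays stood at 2518, 1977 and 1449 untreated and at 3866, 4142, 3928 and 4339 treated. All 4 of these treated arrays lay above every other array of the experiment. The rise in Ire1 ko was 2.10-fold, 1.07 on the log2 scale (SE 0.20, limma adjusted p 0.000723).

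Comparing the genotypes after tunicamycin, 6 of 35 enzymes were higher in Ire1 ko and 1 was lower, beside 9.68% higher and 8.5% lower of all genes tested (18.2% called). Among those with a group mean of 16 or more, 5 of 28 were higher, beside 20.4% of all such genes. The differences were 1.09 for Sult1a1 (SE 0.19, limma adjusted p 0.000501), 1.04 for Ugt2b35, 0.85 for Gstt3, 0.72 for Sult1c2, 0.59 for Gstp3 and 0.39 for Ugt2b34. The arrays of Ugt2b35 overlapped slightly, since 1 WT array reached 247 and 1 Ire1 ko array stood at 224. Sult1c2 lay at only 6 in WT and 9.75 in Ire1 ko, and Ugt2b37 was lower but lay at 5 and 4. The Gstt3 call was lost without either of WT tunicamycin replicates 1 and 2 or without Ire1 ko tunicamycin replicate 3. That for Gstp3 was lost without Ire1 ko tunicamycin replicate 4, and that for Sult1c2 without WT tunicamycin replicate 2 or 4 or Ire1 ko tunicamycin replicate 2. Cell markers moved with this comparison too: the Kupffer sums were 386 to 533 in WT and 600 to 850 in Ire1 ko, and the hepatocyte sums 34965 to 36156 and 36952 to 39937, without overlap in either list. Of 8 hepatocyte markers, Cyp2e1 (0.16) and Hnf4a (0.55) were called higher, and of 7 Kupffer markers 0 were called. Their part in the enzyme results was not tested.

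Whether the response itself differed was tested by the interaction of genotype and tunicamycin, in which 2 of 35 enzymes were called, both higher, beside 7.53% of all genes tested and 15.7% of those with a group mean of 16 or more. These were Gstt3 (1.25, SE 0.35, limma adjusted p 0.0423) and Sult1a1 (0.99, SE 0.28, limma adjusted p 0.0392). Both calls depended on single arrays. Gstt3 kept its call only without WT replicate 2 or Ire1 ko replicate 2, in 2 of 15 fits that left out 1 array, with an adjusted p of up to 0.0923. Sult1a1 kept it in 3 of 15, those without WT replicate 2, WT tunicamycin replicate 4 or Ire1 ko replicate 1, with an adjusted p of up to 0.120. Without the filter on low values, 0 of the enzymes were called. For Ugt2b35 the interaction was 0.50 (95% interval -0.18 to 1.18) and for Gstp3 0.58 (0.07 to 1.09, limma adjusted p 0.191), so a difference in their responses was not established.

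Genes linked to the donor molecules moved as well. Beside the list counts after tunicamycin, 17.6% of all genes tested fell and 18.5% rose in WT. In Ire1 ko the shares were 10.3% and 17.4%. With a group mean of 16 or more they were 32.3% and 35.6% in WT and 21.2% and 34.6% in Ire1 ko. Of 5 tested genes on the list of UDP-glucuronate supply, 3 fell in WT. These were Ugdh, which makes UDP-glucuronate, from 352 to 200.2 (-0.90), Pgm1 (-1.24) and Gusb (-1.87). Gusb is the hydrolase that removes glucuronic acid and does not supply the donor. In Ire1 ko, Ugdh was 397 untreated and 416 treated and was not called. There Pgm1 and Gusb fell, and Slc35d1, which carries nucleotide sugars into the ER, rose by 0.68. The interaction was called for Slc35d1 (0.92) and Gusb (0.69) and not for Ugdh (0.96, limma adjusted p 0.0987).

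For glutathione, 5 of 12 tested genes fell and 1 rose in WT. Gclc, the catalytic subunit of the rate-limiting enzyme of glutathione synthesis, fell from 454 to 154, and its modifier subunit Gclm fell from 616 to 342. Gsr, Gpx1 and Oplah also fell. Chac1, which degrades glutathione, rose from 16 to 374, or by 4.60 on the log2 scale. In Ire1 ko the same 5 genes fell, and Chac1 and Cth rose. Chac1 reached only 47.8 there, and its interaction was -2.30 (limma adjusted p 4.64e-05).

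For the sulfate donor, 4 of 6 tested genes fell and 1 rose in WT. The PAPS synthases moved in opposite directions: Papss2 fell from 426 to 256, while Papss1 rose from 13.2 to 92.5, or by 2.85 on the log2 scale. In Ire1 ko Papss1 went from 7.33 to 12.8, and its interaction was -2.05 (limma adjusted p 0.000386). Slc26a1, a sulfate transporter, fell by 0.75 in WT and rose by 0.66 in Ire1 ko, with an interaction of 1.40 (limma adjusted p 0.000162). Suox, the oxidase that makes sulfate, fell by 1.63 in WT and by 0.57 in Ire1 ko.

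Of 15 tested regulators of conjugating enzymes, 7 fell and 0 rose in WT after tunicamycin, beside 17.6% and 18.5% of all genes. Those regulators that fell are named next. They included the nuclear receptors Nr1i3 (CAR), from 197 to 27.2, and Ppara, from 456 to 64.2, the dioxin receptor Ahr, from 110 to 25.8, and Cebpa, from 1098 to 217. Rxra, Nr1h3 and Stat5b fell too. In Ire1 ko 6 fell and 3 rose, beside 10.3% and 17.4% of all genes, and Nr1i3 went from 253 to 43.5. After tunicamycin, 10 of the 15 were higher in Ire1 ko than in WT and 0 were lower. Among all genes tested, 9.68% were higher and 8.5% lower there. With a group mean of 16 or more the shares were 20.4% and 17.8%. Of 7 tested NRF2 targets outside the families, 3 fell and 2 rose in WT, and Gclc and Gclm are among the 3. Of 17 tested conjugating and related enzymes outside the rule, 7 fell and 1 rose in WT, and 7 fell and 0 rose in Ire1 ko. These lists are described by counts and were not tested as sets.

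Markers of other liver cells moved with tunicamycin. In WT, 3 of 7 Kupffer cell markers (Cd5l, Cd68 and Vsig4) were called lower, and their summed intensity went from 594 to 1198 in untreated arrays to 386 to 533 in treated ones. Of 6 endothelial markers, 4 were lower and 1 was higher, and the sums went from between 749 and 990 to between 514 and 647. The 8 hepatocyte markers summed to between 37109 and 40689 untreated and between 34965 and 36156 treated, with 4 lower and 1 higher. In Ire1 ko, 0 Kupffer and 2 endothelial markers were called, both of them lower. Of the 8 hepatocyte markers there, 0 were lower and 2 (Hnf4a and Tat) higher. Their sums overlapped, at 35597 to 41695 untreated and 36952 to 39937 treated. Of all genes tested, 17.6% fell and 18.5% rose in WT, and 10.3% and 17.4% in Ire1 ko. The part of the cell markers in the enzyme results was not tested. Shifting each array to a common median of brighter probe sets moved the median of all genes by -0.124 in WT and -0.179 in Ire1 ko, and no called enzyme changed direction.

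In Xbp1 ko liver, which addresses what the loss of XBP1 does without added stress, 4 of 34 enzymes fell and 0 rose, beside 2.71% of all genes called (2.07% lower and 0.642% higher) and 5.98% of those with a group mean of 16 or more. The calls were for 3 GST genes and 1 SULT gene. Gstm2, a mu-class enzyme, had intensities of 96, 103, 124 and 113 in WT and 53, 37, 53 and 53 in Xbp1 ko. The groups lay well apart, and the fall was 2.24-fold (-1.16, SE 0.14, limma adjusted p 0.00442). Gstt2 went from 301, 226, 247 and 222 to 151, 132, 105 and 94 (-1.06, SE 0.17, limma adjusted p 0.0142). Sult1d1, which sulfates catecholamines and eicosanoids, went from 270, 287, 226 and 247 to 165, 151, 123 and 169 (-0.77, SE 0.12, limma adjusted p 0.0143). Gstt3 went from 84, 107, 64 and 78 to 54, 49, 39 and 39 (-0.87, SE 0.18, limma adjusted p 0.047).

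The call for Gstm2 held in all 8 fits that left out 1 array, while that for Gstt2 was lost without WT replicate 1, WT replicate 3 or Xbp1 ko replicate 3. The call for Sult1d1 was lost without WT replicate 1 or Xbp1 ko replicate 2. That for Gstt3 was lost in 7 of these 8 fits, being kept only without WT replicate 3, with an adjusted p of up to 0.146. It was also lost with no filter on low values, in one fit over all 31 arrays and with the replicate number as a block. The count of 4 became 1 without WT replicate 1, and 2 without Xbp1 ko replicate 2 or replicate 3. It became 9 in both of 2 other settings. With only genes of a group mean of 16 or more tested, 8 were lower, adding Gstm6, Sult5a1, Ugt2a3 and Ugt2b1, and Gstk1 was higher. With arrays set to a common median, 9 were lower, the additions being Gstm5, Gstm6, Sult5a1, Ugt2a3 and Ugt2b1.

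Arrays of the Xbp1 ko and WT groups did not overlap for 10 enzymes, all lower in ko, beside 7.02% of all genes tested and 3.73% lower. All 10 had a group mean of 16 or more, where 8.29% of all genes were lower without overlap. The 6 of these that were not called included Ugt2b1, with 2348 in WT and 1702 in Xbp1 ko (-0.48, limma adjusted p 0.137), and Sult5a1 (-0.82, limma adjusted p 0.169). Ugt2a3 went from 664 to 507 (-0.38, limma adjusted p 0.078). The differences were 0.07 for Ugt1a9 (95% interval -0.08 to 0.22), 0.04 for Ugt1a6a and 0.01 for Ugt2b34, none of them called. Gstk1 was 558 in WT and 758 in Xbp1 ko, which was not called (0.44, limma adjusted p 0.176). Over the 34 enzymes the median log2 difference was -0.18, against 0.01 over all genes tested.

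The donor genes showed few calls in Xbp1 ko, where 2.71% of all genes tested were called. Slc35d1 was higher (0.59, limma adjusted p 0.0142) and Slc26a1 lower (-0.34, limma adjusted p 0.0403), while 0 of 11 tested glutathione genes were called. Of 16 tested regulators, Nr1h4, the bile acid receptor FXR, was called, at 0.59 (limma adjusted p 0.00843). Among markers of other cells, Cd79b of B cells was called higher at group means of 5 and 6.5, and the Kupffer sums overlapped, at 983 to 1135 in WT and 853 to 1632 in Xbp1 ko. The hepatocyte sums did not overlap, at 39280 to 42919 in WT and 36585 to 38722 in Xbp1 ko. Of 8 hepatocyte markers, Apoa1 and Cyp2e1 were called lower. Their part in the enzyme results was not tested.

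**Figure D3:**
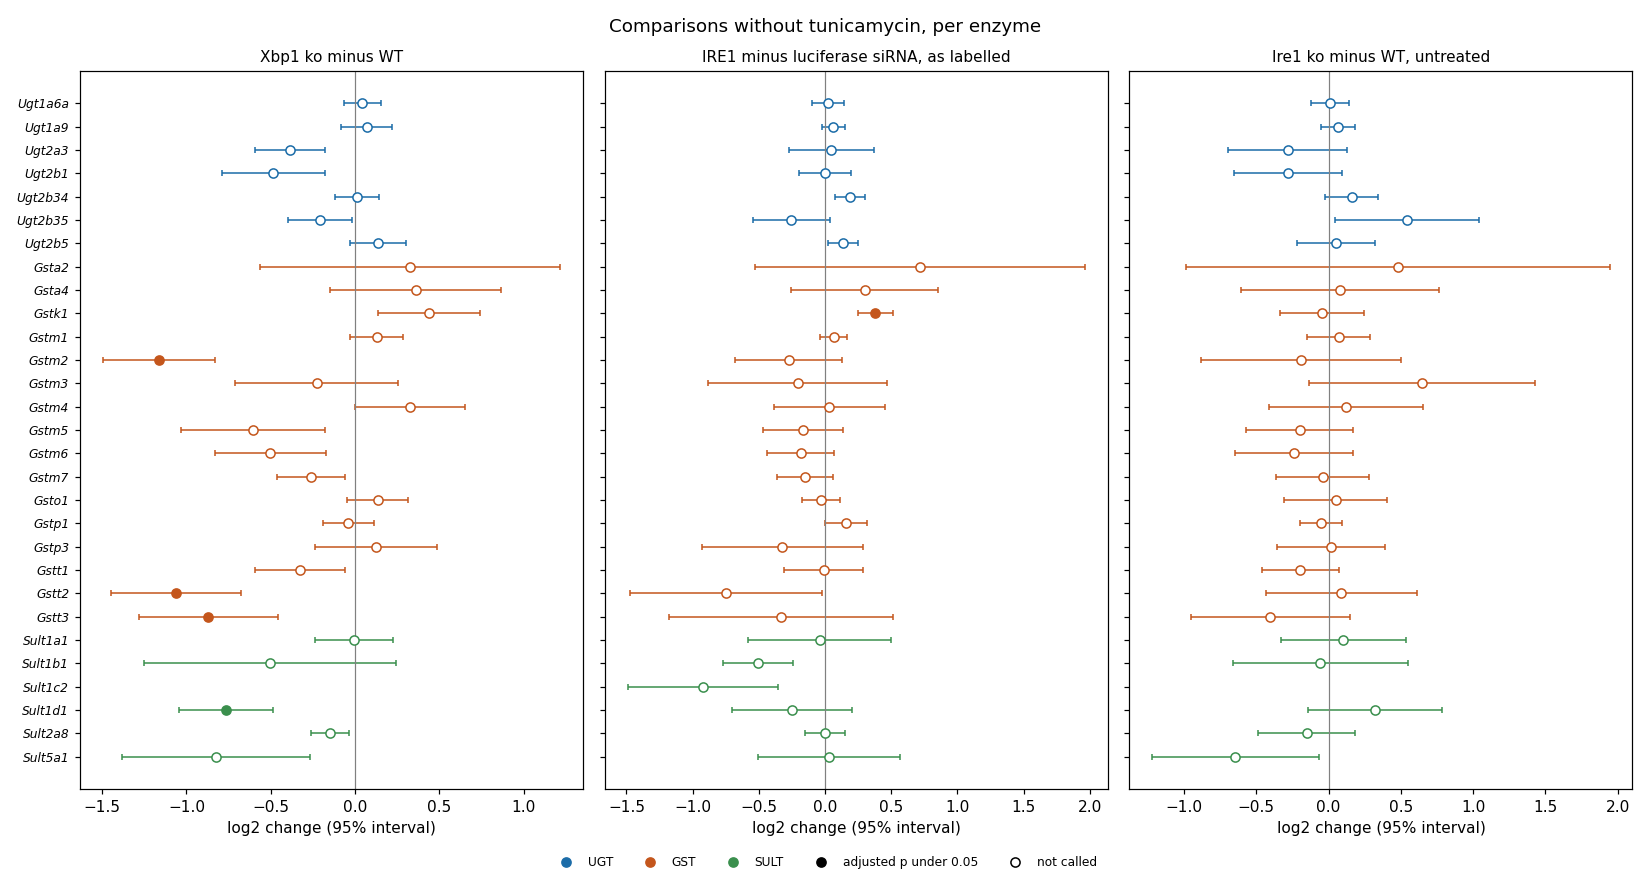
Log2 difference with its 95% interval for each enzyme with a group mean of 16 or more in the comparisons without tunicamycin: Xbp1 ko minus WT, IRE1 minus luciferase siRNA as labelled, and untreated Ire1 ko minus WT. Filled points have an adjusted p under 0.05; they are Gstm2, Gstt2, Gstt3 and Sult1d1 in the first panel, Gstk1 in the second and none of the enzymes in the third, and the interval of Gsta2 is the widest in each panel.

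In the siRNA experiment on Xbp1 ko livers, 1 of 33 enzymes was called, beside 1.79% of all genes tested and 3.6% of those with a group mean of 16 or more. Gstk1 was 676, 661, 656 and 655 in arrays labelled luciferase siRNA and 868, 860, 778 and 945 in those labelled IRE1 siRNA, with no overlap (0.38, SE 0.06, limma adjusted p 0.0207). The call was lost in 6 of 8 fits that left out 1 array (any array labelled luciferase, or replicate 1 or 2 of those labelled IRE1) and in a fit over all 31 arrays. Sult1c2 (-0.92, limma adjusted p 0.14) and Sult1b1 (-0.51, limma adjusted p 0.0852) were lower without overlap, and Ugt2b34 was higher without overlap (0.19, limma adjusted p 0.125), none of them called. With Gstk1, 4 of 33 enzymes did not overlap, beside 6.74% of all genes. All 4 had a group mean of 16 or more, where 4 of 29 enzymes and 14.4% of all genes did not overlap. Sult1c2 and Sult1b1 were called lower when only genes of a group mean of 16 or more were tested, which made the count over all enzymes 3. Sult1c2 passed that filter only through the arrays labelled luciferase, with a mean of 17.5 against 9.25 in those labelled IRE1. Its call under the filter is therefore no separate support. Gsta2, at 122, 175, 123 and 112 against 256, 272, 69 and 444, differed by 0.71 and was not called. The Ugt1a9 difference was 0.06 and that of Ugt2b35 was -0.25, neither of them called. Of the gene lists, 1 of 11 tested glutathione genes (Gpx4) was called higher. So was 1 of 17 conjugating and related enzymes outside the rule (Ephx1). Of 15 tested regulators, 0 were called, and of 8 hepatocyte markers Cyp2e1 was called lower. Kupffer sums were 1039 to 1674 and 1189 to 1671 in the respective groups, and hepatocyte sums were 37152 to 38538 and 35358 to 35972. Their part in the result for Gstk1 was not tested.

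In untreated Ire1 ko liver, 0 of 35 enzymes were called by limma, beside 0.943% of all genes tested, and 3 had an unadjusted p under 0.05, beside 9.5% of all genes. Ugt2b35 was 589, 572, 682 and 799 in WT and 917, 918 and 1028 in Ire1 ko, without overlap, but the difference of 0.54 (SE 0.24) had a limma adjusted p of 0.472. Ugt2b1 was lower without overlap (-0.28, limma adjusted p 0.69), where 4.98% of all genes did not overlap. Sult5a1 differed by -0.64 and Gstm3 by 0.65, and neither was called. Of the regulators, Bcl6 was called, at 3.07. The 3 Ire1 ko arrays were widely spread for several GST genes, with Gsta4 at 366, 556 and 156.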

How the data were processed

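Liver RNA of 31 mice was measured on an Affymetrix perfect-match array. The deposited values are probe set intensities, which the authors made with RMA and affy, per the submitters' processing notes (versions not given in the sources used here). They are linear and rounded to whole numbers, and 66.2% are 6 or less. Log2 intensities were fitted by limma (version 3.58.1, R 4.3.3), using eBayes with a trend on intensity, in separate fits for the Xbp1 experiment, the siRNA experiment and the 4 groups of the Ire1 experiment. Genes above the 30th percentile of their array in at least 3 arrays of a fit were tested, with Benjamini-Hochberg adjustment at 0.05, two-sided. P-values set a difference of group means against the spread between these arrays, and the number of arrays limits the precision. The scripts were tested on simulated data.

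Probe sets with exactly 1 symbol were used, and coordinates are given for RefSeq promoter sequences only. The enzymes and gene lists were chosen with earlier results of these data known. Named were every called enzyme, the 3 brightest of each family, the largest change of each family per comparison, and some called genes of the lists. Other called list genes are given as counts or left out. Gsta2, Gstm5, Gstm6 and others were added after their values were seen. Alternatives were quantile normalization, a common median, other filters, averaging probe sets, one fit over 31 arrays, a replicate block and leaving out each array.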

Additional observations from a re-analysis of the deposited data

Results flagged for a closer look

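Of 196 sets of 4 arrays examined, 1 enzyme in 1 group each, 11 held an array whose gap to the nearest other array exceeded the 95% critical value of Dixon's ratio, where chance gives about 1 in 20. Gstm2 was 37 in Xbp1 ko replicate 2, with the others at 53. In Ire1 ko after tunicamycin, Gstm2 was 180 in replicate 1, with 92 to 100 in the others, and Gstt3 was 53 in replicate 3, with 33 to 36 in the others. Gstm3 was 575 in replicate 4 of the WT littermates of Xbp1 ko, with 344 to 351 in the others. In the arrays labelled IRE1 siRNA, Gstm3 was 858 in replicate 2 (others 362 to 418), Gsto1 was 477 in replicate 1 (others 547 to 558) and Sult1d1 was 207 in replicate 4 (others 137 to 141). In those labelled luciferase siRNA, replicate 2 held both outlying values, with Gstt2 at 485 (others 306 to 336) and Ugt2b1 at 1568 (others 1727 to 1735). Sult5a1 was 72 in untreated WT replicate 3 of the Ire1 experiment, with the others at 128 to 130. Ugt1a9 was 2684 in Xbp1 ko replicate 2, with 2213 to 2261 in the others.

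The tunicamycin response differed between the genotypes by the interaction test for Gstt3 (1.25 on the log2 scale, Ire1 ko minus WT) and for Sult1a1 (0.992). Both calls were lost in most fits that left out 1 array.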

How the results depend on the processing

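Of 1059 re-computed values of called enzymes, 940 kept the call and its direction, 119 lost the call and 0 reversed, with 6 further ones not tested under the alternative. The counts after tunicamycin (19 in WT, 17 in Ire1 ko) and between the genotypes after it (7) stayed within 1.5 times under every alternative run. Leaving out 1 array gave 17 to 20, 13 to 17 and 5 to 7 in these comparisons. For Xbp1 ko the count of 4 became 9 with a common median, 9 with a filter at a group mean of 16 and 7 in one fit over 31 arrays, and ran from 1 to 4 with 1 array left out. For the siRNA groups the count of 1 became 3 with a common median and 3 with the filter at 16, and ran from 0 to 1 with 1 array left out. A count of 1 was not always Gstk1. It was Sult1c1, near the floor, without replicate 2 of the arrays labelled luciferase, and Sult1b1 without their replicate 3. In one fit over 31 arrays it was Sult1c2. In untreated Ire1 ko the count stayed at 0 with any 1 array left out. For the interaction the count of 2 became 0 with no filter and ran from 0 to 2 with 1 array left out. The labels do not say whether same-numbered arrays belong together. Deviations of such arrays from their group means correlated at -0.183 to 0.294 over the Ire1 groups. The range was 0.0196 to 0.269 for the Xbp1 groups and -0.154 to 0.0586 for the siRNA groups. A shared source of these arrays was not tested. With the replicate number as a block, the counts were 3 for Xbp1 ko and 0 for the siRNA groups. They were 1 for untreated Ire1 ko (Ugt2a1, near the floor) and 1 for the interaction (Ugt2a1 again). The cause of these changes was not tested. Values near the floor are limited by rounding and by a low signal over background.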

Other observations

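The 2 called enzymes with the largest changes were set against all 5834 genes with a mean intensity of 16 or more, by Pearson correlation of log2 intensity over the 15 arrays of the Ire1 experiment. Closest to Ugt2b35 were Agt (0.974), the angiotensin precursor, F13b (0.973), a coagulation factor subunit, and Hipk2 (0.970). Closest to Sult5a1 were Gstp1 (0.953), Acsf2 (0.951) and Mettl26 (0.951). The arrays share treatment groups, so these values describe the pattern only.

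Gsta2 varied most between arrays of 1 group among the 28 enzymes with a mean of 16 or more, with a within-group SD of 0.91 on the log2 scale against 0.49 for the next, Gstm3. After these values were seen, deviations of Gsta2 from its group means were compared with those of the other 27 enzymes over 31 arrays, permuting arrays within groups 100000 times. Gsta4 followed it most closely, with Pearson's r of 0.917 and Spearman's rho of 0.861 (permutation p 1e-05 each, the smallest the permutations can give; Benjamini-Hochberg adjusted 0.00027). Without the 2 arrays farthest from the median of Gsta2, r was 0.863. Within the experiments r was 0.915 for Xbp1, 0.913 for siRNA and 0.923 for Ire1. Gstt1 (r 0.740, permutation p 0.00107, adjusted 0.0144), Gstt2 (0.667, p 0.00266, adjusted 0.0239) and Gstk1 (0.614, p 0.0051, adjusted 0.0344) also passed by permutation of r. Their Spearman values of 0.578 (permutation p 0.00677), 0.518 (p 0.0143) and 0.512 (p 0.0174) did not pass after adjustment (0.0914, 0.118 and 0.118). Without the 2 farthest arrays their r values were 0.628, 0.539 and 0.571. For Gstt2, r within the Xbp1 experiment was only 0.0385. Genes outside the 28 enzymes were not compared with Gsta2, so no share of all genes stands beside these relations.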
